A study of Mus musculus with 24 samples.

Results

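Cytosolic ribosomal protein genes encode the protein components of the small (40S) and large (60S) subunits of the ribosome. They were taken here as genes with a probe set whose single annotated symbol begins with Rpl or Rps and a number, or is Rpsa, Rplp0, Rplp1 or Rplp2, without the S6 kinase genes and pseudogenes. Each gene was represented by its probe set with the highest mean over all arrays. This gave 48 of 12393 measured genes, held by 100 of 22690 probe sets. The 48 comprise 20 genes of the 40S subunit, 20 of the 60S subunit, 2 of the stalk (Rplp0 and Rplp2) and 6 paralogs (Rpl3l, Rpl7l1, Rpl22l1, Rpl39l, Rps4l and Rps27l). A further 30 symbols of the family occur only in probe sets that list several symbols and were not used.

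The study profiled total RNA of mouse sciatic nerve on Affymetrix arrays, on which each probe set gives 1 signal, from 1 or several transcripts, as a log2 value. Nerves came from S63del/CHOP null, S63del, CHOP null and WT mice at P5, P28 and 4 months, with 2 arrays labelled as biological replicates in each of 12 groups and 24 in all. S63del is a mutant form of myelin protein zero that models the neuropathy Charcot-Marie-Tooth type 1B, and CHOP null mice lack the stress-induced transcription factor CHOP. The perineurial sheath was removed before the nerves were frozen. Neither the promoter that drives S63del, the number of animals per array nor the sex is given in the labels, and the nerves hold Schwann cells together with other cell types, so fewer cells of a type and less RNA per cell cannot be told apart. With 2 arrays a group, the fit took the spread of a gene from all 24 arrays together. Its p-values therefore do not rest on the 2 arrays of a group alone, and they measure only the spread between these arrays.

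Ribosomal proteins are made in nearly equal amounts and assembled with ribosomal RNA in the nucleolus, a process that needs many further biogenesis factors. Their mRNAs are very abundant and carry a 5′ terminal pyrimidine tract, through which translation of the whole set is adjusted by growth signalling. The stalk proteins recruit translation factors to the ribosome, and the paralogs replace a core protein in some tissues or have roles of their own. In myelinating Schwann cells, which make large amounts of membrane and myelin protein, the protein-folding load of the endoplasmic reticulum is linked to translation by the unfolded protein response, of which CHOP is a part.

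The sequence around the start of transcription is shown for the 5 ribosomal protein genes whose level differed between S63del and WT at P28, because the pyrimidine tract is the shared feature of the family. The sequences are from RefSeq (GRCm38.p6), 20 bases before and 20 bases after the annotated start, 5′ to 3′ on the strand of the gene. Capitals mark the longest run of at least 5 C or T that begins with a C within 5 bases of the annotated start.
Rpl27a, chr7:109519175-109519214, plus strand: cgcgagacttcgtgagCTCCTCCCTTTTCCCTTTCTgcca
Rps18, chr17:33955646-33955685, minus strand: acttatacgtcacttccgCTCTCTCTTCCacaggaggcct
Rpl14, chr9:120571497-120571536, plus strand: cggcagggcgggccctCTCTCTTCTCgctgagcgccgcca
Rpsa, chr9:120127746-120127785, plus strand: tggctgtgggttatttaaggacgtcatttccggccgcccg
Rpl12, chr2:32961692-32961731, plus strand: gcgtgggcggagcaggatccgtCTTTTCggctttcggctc

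The run was longest in Rpl27a (20 bases), followed by Rps18 (11 bases), Rpl14 (10 bases) and Rpl12 (6 bases), and Rpsa had none in this window. Of the 42 ribosomal protein genes that the promoter table holds, 20 carried such a run (47.6%), against 21.2% of 27025 genes in the table. Both figures count the gene's own strand only, and annotated starts may be several bases off the true start.

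The labels were checked against the targeted gene. Ddit3, which encodes CHOP, read 6.60 to 7.37 on the 6 CHOP null arrays and 6.70 to 6.93 on the 6 S63del/CHOP null arrays, against 9.0 to 9.59 on the S63del arrays and 7.61 to 9.09 on the WT arrays. The Schwann cell and myelin markers were present on every array, with a mean level of 11.92 to 12.57. Skeletal muscle markers varied widely within groups, with a mean level of 6.54 to 12.01. The P28 arrays stood apart technically from the others: the DapX spike-in control, an RNA added during labelling, read 8.14 to 8.41 at P5, 3.10 to 3.77 at P28 and 8.12 to 8.41 at 4 months. The interquartile range of an array was 3.77 to 3.83 at P5, 2.90 to 3.52 at P28 and 3.86 to 3.90 at 4 months. Age and array processing therefore cannot be told apart for P28. The narrowest range, 2.90, was that of CHOP null replicate 2 at P28, and WT replicate 1 at 4 months had the largest excess of 3′ over 5′ Gapdh signal, 2.12 on the log2 scale.

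Most ribosomal protein probe sets were among the brightest on the arrays. The median of their mean levels was 12.90 on the log2 scale, against 7.36 over all genes, and 36 of the 48 were in the top 5% of genes by mean level. The mean over 24 arrays was at least 9 for 38 genes and lower for 10. Rps29 and Rpl41 were the brightest, with means of 13.79 and 13.69, and the testis paralog Rpl39l (4.97) and the muscle paralog Rpl3l (5.22) the dimmest. Probe sets differ in their response, so these levels do not rank the mRNAs. The standard deviation within groups had a median of 0.07 over these genes and 0.16 over all genes.

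At P5 ribosomal protein genes read slightly higher in S63del than in WT nerves by their median, but no single gene passed the test. The median log2 difference was 0.08 over the 48 genes, against -0.02 over all genes, and 45 of 48 lay above 0. No ribosomal protein gene had an adjusted p under 0.05 in limma, where 2.40% of all genes were called; 4 had an unadjusted p under 0.05. On 23 of the 48 genes both S63del arrays lay above both WT arrays, against 22.8% of all genes, and on none did both lie below, against 27.3% of all genes. With S63del/CHOP null and S63del nerves (the mutant genotypes) set against CHOP null and WT nerves, 2 of 48 rose, where 5.97% of all genes were called and 2.87% were higher. Rpl12, a 60S protein near the stalk, read 6.58, 6.81, 6.74 and 6.77 on the S63del/CHOP null and S63del arrays, against 6.29, 6.22, 6.38 and 6.23 on the CHOP null and WT arrays. The 4 arrays of the mutant genotypes all lay above the other 4, with a log2 difference of 0.45 ± 0.10 (SE; adjusted p = 0.0155, limma). Rps25, a 40S protein needed for initiation at some internal ribosome entry sites, differed by 0.38 ± 0.11 (adjusted p = 0.0495). The median over the 48 genes was 0.07, with 46 above 0. The number of genes called was 1 without replicate 1 of any of the 4 P5 genotypes, and 0 without replicate 2 of any of them.

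Markers of several cell types differed at P5 as well. Of 9 Schwann cell and myelin markers 6 fell and none rose, and their mean was 11.92 to 12.04 on the S63del/CHOP null and S63del arrays, against 12.38 to 12.45 on the CHOP null and WT arrays. Of 5 endothelial markers 2 fell (mean 7.28 to 7.51, against 7.65 to 7.94), as did 1 of 7 fibroblast markers (12.65 to 12.76, against 12.88 to 12.97) and 1 of 5 erythroid markers. The 5 proliferation markers had a median log2 difference of 0.30, with 2 above 0 at an unadjusted p under 0.05 and none called (mean 9.83 to 10.15, against 9.61 to 9.84). The part of these cell types in the P5 values was not tested.

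At P28 most ribosomal protein genes read higher in S63del than in WT nerves, and Rpl27a read far lower. Set against WT, 4 of 48 rose and 1 fell in S63del nerves, where 4.62% of all genes were called (3.01% higher and 1.61% lower). The median log2 difference was 0.19, against 0.01 over all genes, and 42 of 48 lay above 0. Both S63del arrays lay above both WT arrays for 32 of the 48, against 27.7% of all genes, and below them for 2, against 24.5% of all genes. The S63del effect at P28 differed from that at P5 by a median of 0.10 over the 48 genes. That median was 0.04 over all genes and 0.08 over the 167 other genes with a mean above 12. Rpl27a was the only ribosomal protein gene called in that difference of effects, where 0.476% of all genes were called.

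Rps18, a 40S protein of the subunit head, read 13.02 and 12.90 on the S63del arrays, against 12.40 and 12.57 on the WT arrays. The groups did not overlap, and the log2 difference was 0.48 ± 0.10 (adjusted p = 0.0147, limma). Averaged over its probe sets instead of taken from the brightest, the difference was 0.15 and not called (adjusted p = 0.469). Rpsa, a 40S protein also known as the laminin receptor precursor, read 12.80 and 12.80 in S63del, against 12.43 and 12.48 in WT. It rose by 0.35 ± 0.09 (adjusted p = 0.0422), but by the mean of its probe sets it differed by 0.15 (adjusted p = 0.405), and it also lost the call after repeated quantile normalization (adjusted p = 0.0613). Rpl14, of the 60S subunit, read 5.74 and 5.86 in S63del, against 4.94 and 5.33 in WT. It rose by 0.67 ± 0.17 (adjusted p = 0.038), and Rpl12 by 0.55 ± 0.15 (adjusted p = 0.0439). The values of Rpl14 and Rpl12 on these arrays lay below the median of the P28 arrays, which was 6.84 to 6.87. The gene that fell was Rpl27a, at -2.97 ± 0.25 (adjusted p = 5.83e-06), described with the 18S control. The number called was 1 without WT replicate 1 or S63del replicate 1, 2 without S63del replicate 2, and 1 when only the 8 arrays of P28 were fitted. It also changed without CHOP null replicate 2 at P28 and WT replicate 1 at 4 months, which are not part of this comparison but enter the estimate of spread. The share of all genes called was not computed for these refits, so their counts cannot be set against it.

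Pooling S63del/CHOP null and S63del against CHOP null and WT at P28 gave 20 of 48 genes higher and 2 lower, where 28.0% of all genes were called (16.1% higher and 11.9% lower). The median over the 48 was 0.18, against -0.02 over all genes and 0.05 over the 167 other genes with a mean above 12, of which 19 rose and 15 fell. The 20 higher genes comprised 7 of the 40S subunit, 9 of the 60S subunit, both stalk genes and the paralogs Rpl7l1 and Rps27l. Among the 38 genes with a mean of at least 9, 17 rose and none fell. All 4 mutant arrays lay above the other 4 for 22 of the 48, against 12.1% of all genes. The count depends on the fit, being 1 when only the 8 P28 arrays were fitted and 2 with array weights, whereas the median was 0.12 to 0.21 over 8 alternatives and 0.14 to 0.23 with an array left out. The count was 8 without WT replicate 1 and 12 without S63del replicate 1.

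**Figure D1:**
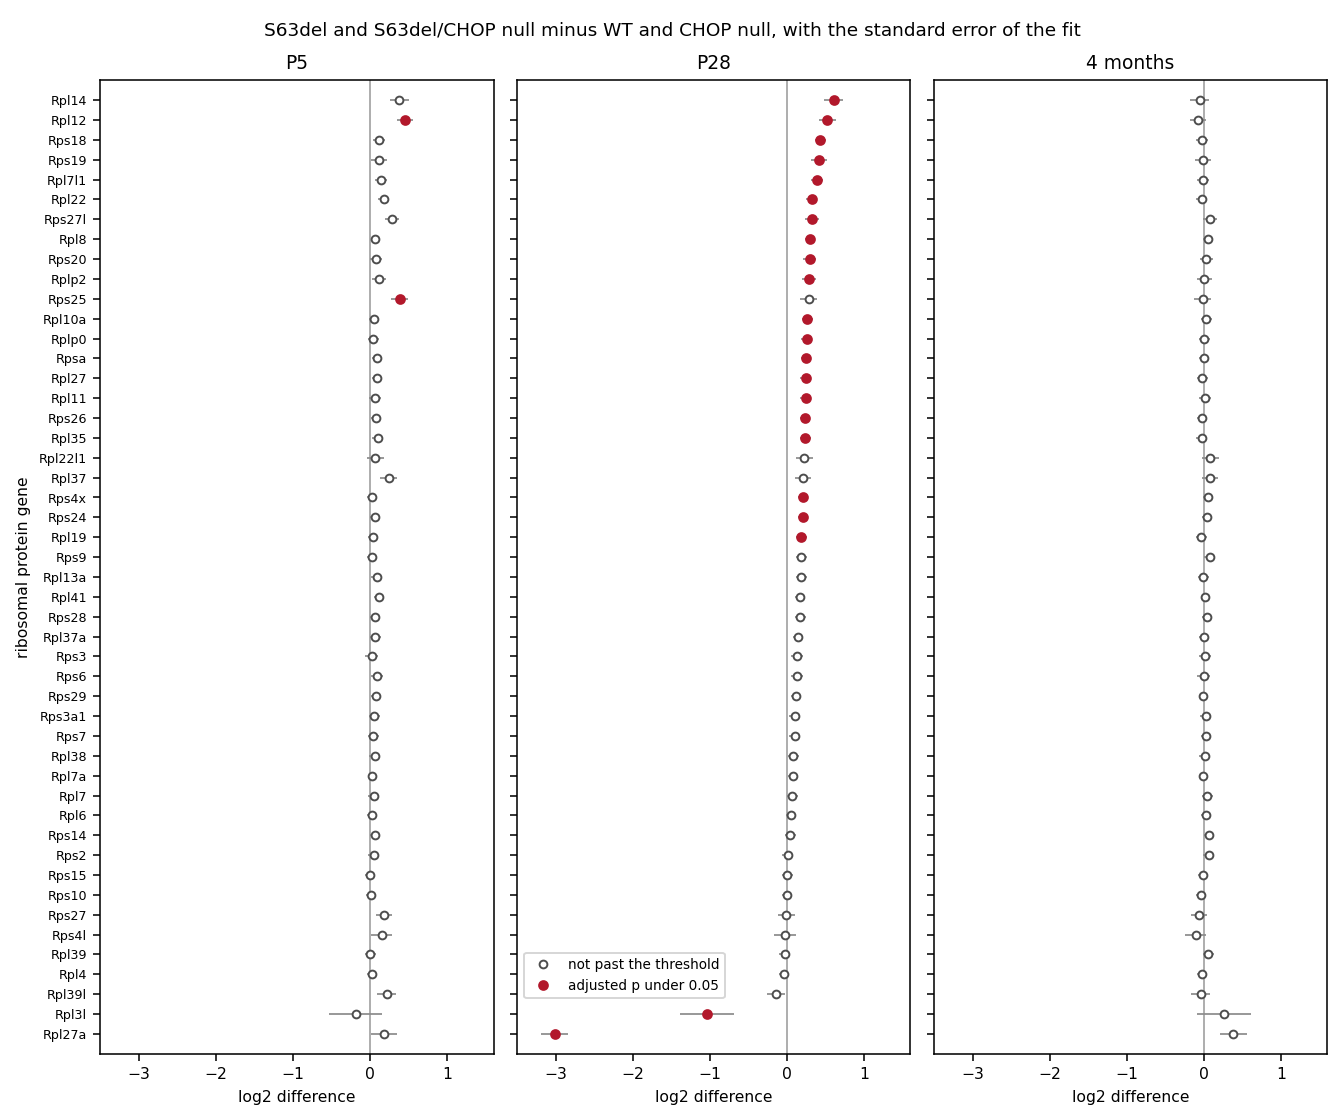
Log2 difference at each age for the 48 ribosomal protein genes, S63del and S63del/CHOP null minus WT and CHOP null, ordered by the value at P28; bars are the standard error of the fit and filled points have an adjusted p under 0.05. At P28 most points lie to the right of 0 and Rpl27a lies at -3.01, while at 4 months most points are close to 0.

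Among the 40S genes, Rps19, whose human counterpart is mutated in Diamond-Blackfan anaemia, read 12.11, 11.95, 12.11 and 11.99 on the S63del/CHOP null and S63del arrays at P28, against 11.33 to 11.89 on the 4 CHOP null and WT arrays. All 4 mutant values lay above the others, and the log2 difference was 0.42 ± 0.10 (adjusted p = 0.00923, limma). Rps18 rose by 0.43 ± 0.07 (adjusted p = 0.000747), whereas the mean of its probe sets differed by 0.10 and was not called (adjusted p = 0.33). Rps6, the substrate of the S6 kinases, differed by 0.13 ± 0.08 and was not called (adjusted p = 0.237), with values of 8.87, 8.63, 8.74 and 8.72 in the mutant genotypes, against 8.72, 8.65, 8.48 and 8.60 in the others.

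Among the 60S genes, Rpl14 rose by 0.60 ± 0.12 (adjusted p = 0.00286, limma) and Rpl12 by 0.52 ± 0.10 (adjusted p = 0.00252). Rpl8, an RNA-binding protein near the peptidyl transferase centre, read 11.80, 11.79, 11.94 and 11.88 in S63del/CHOP null and S63del nerves, against 11.48, 11.53, 11.61 and 11.61 in CHOP null and WT nerves. It rose by 0.30 ± 0.06 (adjusted p = 0.00376). Rpl22 rose by 0.32 ± 0.07 (adjusted p = 0.00595), and Rpl11, which can bind Mdm2 and stabilise p53, by 0.24 ± 0.08 (adjusted p = 0.0282). Rpl38, needed for translation of Hox mRNAs in mouse embryos, differed by 0.08 ± 0.07 (adjusted p = 0.391).

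Of the stalk genes, Rplp0 read 13.34, 13.29, 13.35 and 13.28 in S63del/CHOP null and S63del nerves at P28, against 13.17, 12.88, 13.04 and 13.15 in CHOP null and WT nerves. The mutant arrays all lay higher, by 0.26 ± 0.07 (adjusted p = 0.0164, limma). Rplp2 rose by 0.29 ± 0.09 (adjusted p = 0.0311), with overlapping arrays. CHOP null replicate 2, the array with the narrowest interquartile range, read 12.29, and the other CHOP null and WT arrays read 12.77 to 13.00. Without that array and WT replicate 1 at 4 months the Rplp2 difference was 0.15. Of the paralogs, Rps27l, a p53-inducible relative of Rps27, rose by 0.32 ± 0.09 (adjusted p = 0.0176; 0.0557 after repeated quantile normalization), and Rpl7l1 by 0.39 ± 0.08 (adjusted p = 0.00213). Rpl22l1, the paralog of Rpl22, differed by 0.22 ± 0.11 and was not called (adjusted p = 0.138).

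Rpl3l, a paralog of Rpl3 restricted to heart and skeletal muscle, fell in the mutant genotypes at P28, with a log2 difference of -1.04 ± 0.35 (adjusted p = 0.0365, limma). Its values were 5.89, 4.84, 4.47 and 5.39 in S63del/CHOP null and S63del nerves, against 6.32, 5.77, 6.65 and 6.01 in CHOP null and WT nerves, and the groups overlap. The mean of the 8 measured muscle markers was 7.89 to 11.54 on the mutant arrays and 9.84 to 12.01 on the others. The part of muscle RNA in the Rpl3l difference was not tested.

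Many ribosome biogenesis genes were also higher in the mutant genotypes at P28. Of 49 measured ribosome biogenesis genes, 23 rose and none fell in the mutant genotypes, with a median log2 difference of 0.27, where 16.1% of all genes were higher and 11.9% lower. Rrs1, an assembly factor of the 60S subunit, rose by 0.81 ± 0.14 (adjusted p = 0.000831, limma), Pes1, which matures 60S precursors, by 0.65 ± 0.11 (adjusted p = 0.000794), and Ncl, the nucleolar protein nucleolin, by 0.60 ± 0.14 (adjusted p = 0.00574). Of 17 translation factors and other mRNAs with a pyrimidine tract 3 rose and none fell, among them Eef1b2, an elongation factor subunit, by 0.36 ± 0.10 (adjusted p = 0.0139). Of 74 mitochondrial ribosomal protein genes 20 rose and 1 fell. The share called in either direction was 17.6% of the translation factor list and 28.4% of the mitochondrial list, against 28.0% of all genes. The mitochondrial list was thus near all genes in the total called but not in direction, since 11.9% of all genes were lower. At P5 the ribosome biogenesis list had 6 genes higher and none lower, with a median of 0.21, where 2.87% of all genes were higher.

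Markers of dividing cells differed at P28 too. All 5 measured proliferation markers rose at P28, and their mean was 6.65 to 6.88 on the S63del/CHOP null and S63del arrays, against 5.78 to 6.13 on the CHOP null and WT arrays. Mast cell markers also rose (3 of 4; mean 8.26 to 8.45, against 7.06 to 7.52), as did 3 of 8 macrophage markers, while 2 of 5 erythroid and 2 of 5 lymphocyte markers fell. The 4 adipocyte markers were not called, but their mean was 9.41 to 10.01, against 10.07 to 10.45. Means overlapped for Schwann cell and myelin (12.43 to 12.57, against 12.45 to 12.56), fibroblast and endothelial markers. In S63del set against WT, 1 of 9 Schwann cell and myelin and 1 of 7 fibroblast markers fell. These counts stand beside the shares of all genes called in the same comparisons, given above. At 4 months, where the ribosomal protein median was 0.01, the 5 proliferation markers had a median difference of 0.49, all with an unadjusted p under 0.05 and none called (mean 5.37 to 6.35, against 5.25 to 5.60). The interquartile range of the P28 arrays was 3.38 to 3.52 in the mutant genotypes and 2.90 to 3.38 in the others. The part of these other cell types and of the array range in the ribosomal protein result was not tested.

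**Figure D2:**
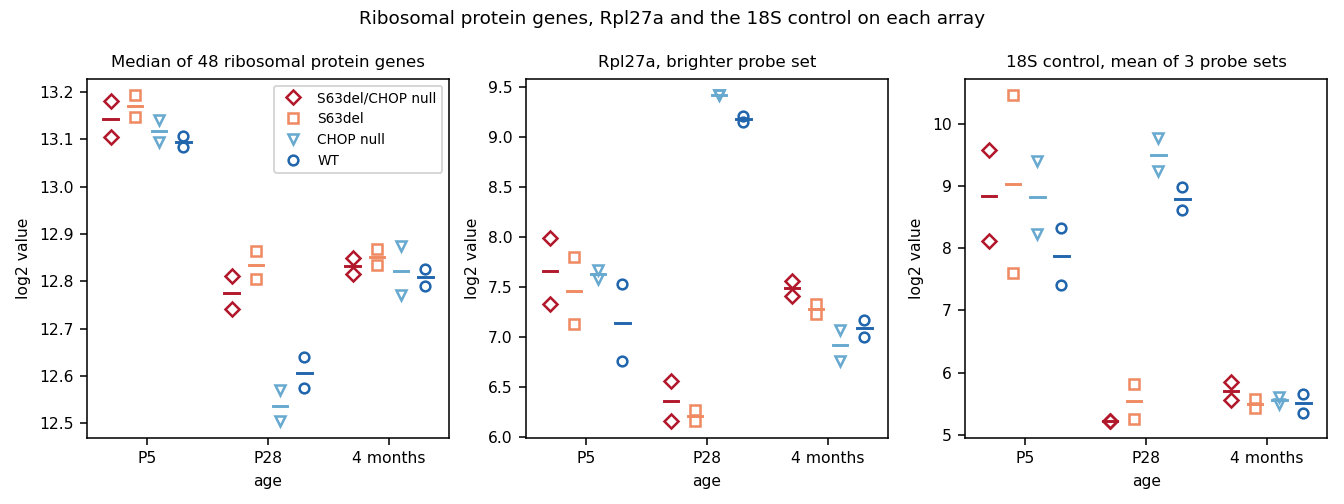
Median log2 value of the 48 ribosomal protein genes (left), of Rpl27a (brighter probe set, middle) and of the 18S control (mean of 3 probe sets, right) on each of 24 arrays by age and genotype; horizontal bars are group means. At P28 the medians are 12.74 to 12.86 in the S63del/CHOP null and S63del nerves and 12.50 to 12.64 in the CHOP null and WT nerves.

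At 4 months no ribosomal protein gene was called between S63del and WT, and no gene of all 12393 was (0%). The median log2 difference of the 48 genes was 0.01, with 28 above 0, and no ribosomal protein gene had an unadjusted p under 0.05. With both mutant genotypes pooled the median was again 0.01 and no gene was called, where 1 of the 48 had an unadjusted p under 0.05. The S63del effect at 4 months differed from that at P28 by a median of -0.15 over the 48 genes. That median was -0.02 over all genes and 0.02 over the 167 other genes with a mean above 12. Rpl27a was the only member called in that difference of effects, where 0.169% of all genes were called.

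No ribosomal protein gene was called when S63del nerves with and without CHOP were compared. S63del/CHOP null set against S63del called 0 of 48 at P5, at P28 and at 4 months, where 0.0161%, 0.00807% and 0.00807% of all genes were called. The medians were -0.02, -0.02 and -0.01, and 1, 0 and 0 of the genes had an unadjusted p under 0.05. The differences of single genes lay between -0.27 and 0.47 at P5, -0.26 and 0.44 at P28, and -0.22 and 0.43 at 4 months. The same held for CHOP null against WT, with medians of 0.01, 0.01 and -0.01 and 0 of 48 called at each age, where 0%, 0% and 0.00807% of all genes were called. The count at P28 did not stay at 0 without CHOP null replicate 1. That refit leaves 1 array in the CHOP null group, the one with the narrowest interquartile range. The share of all genes called was not computed for it. At P28 the S63del effect in CHOP null nerves, S63del/CHOP null against CHOP null, called 9 genes higher and 1 lower (17.8% of all genes), with a median of 0.15.

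Most ribosomal protein genes read lower at P28 than at P5 in WT nerve, although age and array processing cannot be told apart. In WT nerve at P28, set against P5, 36 of 48 fell and 1 rose, where 59.5% of all genes were called (28.2% lower and 31.3% higher). The median log2 difference was -0.37, against 0.08 over all genes. Related lists fell further by their medians. These were -0.82 for ribosome biogenesis, -0.62 for mitochondrial ribosomal proteins and -0.52 for translation factors and other mRNAs with a pyrimidine tract. Rps19 fell to 11.33 and 11.89 at P28, against 12.94 and 12.80 at P5. The log2 difference was -1.26 ± 0.15 (adjusted p = 3.12e-06, limma), and the arrays of the ages do not overlap. Rpl14 read 4.94 and 5.33 at P28, against 7.67 and 7.69 at P5, and fell by 2.54 on the log2 scale, with an SE of 0.17. These P28 values of Rpl14 lay below the median of the P28 arrays. Other large falls were those of Rps4l (-1.55), Rps25 (-1.15), Rpl22l1 (-1.03) and Rpl8 (-1.01). Rps6 fell by 0.52 and Rplp0 by 0.53. The 1 gene that rose was Rpl27a, by 2.03.

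Levels were higher again at 4 months than at P28. In WT nerve 25 of 48 rose and 2 fell, where 57.0% of all genes were called (31.5% higher and 25.5% lower), with a median of 0.25. The medians were 0.60 for ribosome biogenesis, 0.42 for mitochondrial ribosomal proteins and 0.35 for translation factors and other mRNAs with a pyrimidine tract. Rpl14 read 7.03 and 6.65 at 4 months, against 4.94 and 5.33 at P28, a log2 difference of 1.70 ± 0.17 (adjusted p = 2.41e-06, limma). Rps19 rose by 0.81, Rps6 by 0.72 and Rps4l by 1.02; by the mean of its probe sets Rps6 differed by 0.24 and was not called (adjusted p = 0.0925). Rpl27a fell by 2.09 and Rpl3l by 1.78. All 8 muscle markers fell as well, with a median log2 difference of -4.65, and their part in the Rpl3l value was not tested. Rplp0 differed by 0.07 and was not called (adjusted p = 0.596). Without WT replicate 1 at P28 the number called was 16, against 27 with it.

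Set against P5, 16 of 48 were lower and none higher at 4 months in WT nerve, where 36.8% of all genes were called (15.5% lower and 21.3% higher). The median was -0.19, beside -0.26 for ribosome biogenesis, -0.19 for mitochondrial ribosomal proteins and -0.18 for translation factors and other mRNAs with a pyrimidine tract. The difference was -0.84 ± 0.17 for Rpl14 (adjusted p = 0.00091, limma), -0.61 ± 0.13 for Rps27l and -0.47 ± 0.10 for Rplp0. The count was 9 without WT replicate 1 at P5 or WT replicate 1 at 4 months, and 8 without WT replicate 2 at P5. The median difference over the 48 genes had the same sign in the other genotypes. For P28 minus P5 the medians were -0.34 in S63del/CHOP null, -0.30 in S63del and -0.42 in CHOP null, and for 4 months minus P28 they were 0.14 in S63del/CHOP null, 0.09 in S63del and 0.24 in CHOP null. Rpl27a did not keep its direction: at P28 minus P5 it differed by -1.30 in S63del/CHOP null, -1.25 in S63del and 1.79 in CHOP null (adjusted p = 0.000429, 0.00059 and 1.51e-05 over all probe sets, limma). At 4 months minus P28 it differed by 1.13, 1.07 and -2.50 in the same genotypes.

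Other markers moved with age. Proliferation markers averaged 9.61 to 10.15 at P5, 5.78 to 6.88 at P28 and 5.25 to 6.35 at 4 months. Adipocyte markers averaged 6.19 to 7.22, 9.41 to 10.45 and 10.32 to 11.17 at these ages, and mast cell markers 5.96 to 6.57 at P5, 7.06 to 8.45 at P28 and up to 8.82 at 4 months, with a mean of 8.42. The excess of 3′ over 5′ signal, a measure of RNA quality, was -0.22 to -0.17, -0.05 to 0.39 and -0.04 to 2.12 for Gapdh, and 0.33 to 0.44, 0.59 to 1.12 and 0.74 to 1.82 for actin. The part of these cell types and of RNA quality in the age differences was not tested.

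**Figure D3:**
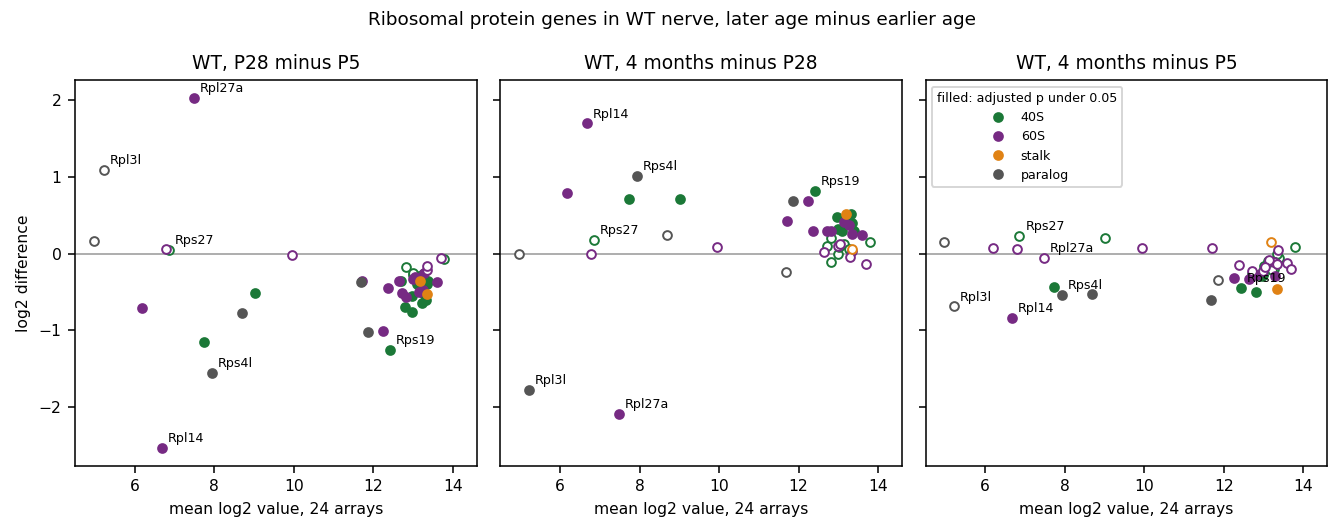
Log2 difference between ages in WT nerve for each of the 48 ribosomal protein genes, against its mean level over 24 arrays; filled points have an adjusted p under 0.05 and colours give the role. Rpl14 (-2.54) and Rpl27a (2.03) lie farthest from 0 at P28 minus P5, and Rpl27a (-2.09), Rpl3l (-1.78) and Rpl14 (1.70) at 4 months minus P28, while most bright genes lie between 0 and -1.26 at P28 minus P5.

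The 18S control probe sets, which target ribosomal RNA rather than mRNA, and Rpl27a behaved unlike the other ribosomal genes at P28. At P5 the mean of the 3 18S probe sets was 7.60 to 10.46 on the S63del/CHOP null and S63del arrays, against 7.41 to 9.40 on the CHOP null and WT arrays, and these overlap. At P28 it was 5.21 to 5.82, against 8.61 to 9.78, with no overlap. At 4 months it was 5.43 to 5.85, against 5.35 to 5.65. The P28 difference was -3.77, with an exact permutation p of 0.0286 over the 8 arrays, two-sided, a floor set by 4 arrays against 4. Adjusted over 6 tests by Benjamini-Hochberg it was 0.0571. At P5 the 5′ probe set alone differed widely between replicates. It read 12.68 and 8.35 in S63del/CHOP null, 13.42 and 7.89 in S63del, 9.11 and 12.17 in CHOP null, and 7.82 and 9.40 in WT. The part of labelling and array processing in the 18S values was not tested, nor whether they follow the amount of ribosomal RNA in the nerves.

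In the fit over all 22690 probe sets, of which 24.1% were called, the 3 18S probe sets at P28 differed by -4.37 ± 0.98 for the 5′ probe set, -3.62 ± 0.22 for the 3′ probe set and -3.32 ± 0.29 for the middle one (adjusted p = 0.00584, 5.34e-08 and 2.29e-06, limma). The brighter Rpl27a probe set read 6.56, 6.16, 6.16 and 6.27 on the S63del/CHOP null and S63del arrays, against 9.42, 9.42, 9.21 and 9.15 on the CHOP null and WT arrays. It differed by -3.01 ± 0.18 (adjusted p = 5.33e-08), which makes it the 4th largest fall of all probe sets, after the 3 18S probe sets. The other Rpl27a probe set, with a mean level well below it, read 3.59 to 3.82 against 3.77 to 4.59 and differed by -0.37 ± 0.13 (adjusted p = 0.0579), so the probe sets of this gene did not give the same size. The brighter one had a mean of 7.49 over all arrays, which places Rpl27a among the 10 members under 9.

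At P5 the brighter Rpl27a probe set read 7.13 to 7.99 in the mutant genotypes and 6.76 to 7.67 in the others, and these overlap. At 4 months it read 7.24 to 7.56 against 6.76 to 7.18, with no overlap and a difference of means of 0.38 (exact permutation p = 0.0286, two-sided, the smallest the design allows; adjusted 0.0571). In WT nerve it read 6.76 and 7.53 at P5, 9.21 and 9.15 at P28, and 7.01 and 7.18 at 4 months. Bright ribosomal protein genes did the reverse at P28, with all 38 of mean at least 9 below their P5 level in WT nerve. The part of the 18S level in the Rpl27a values was not tested.

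**Figure D4:**
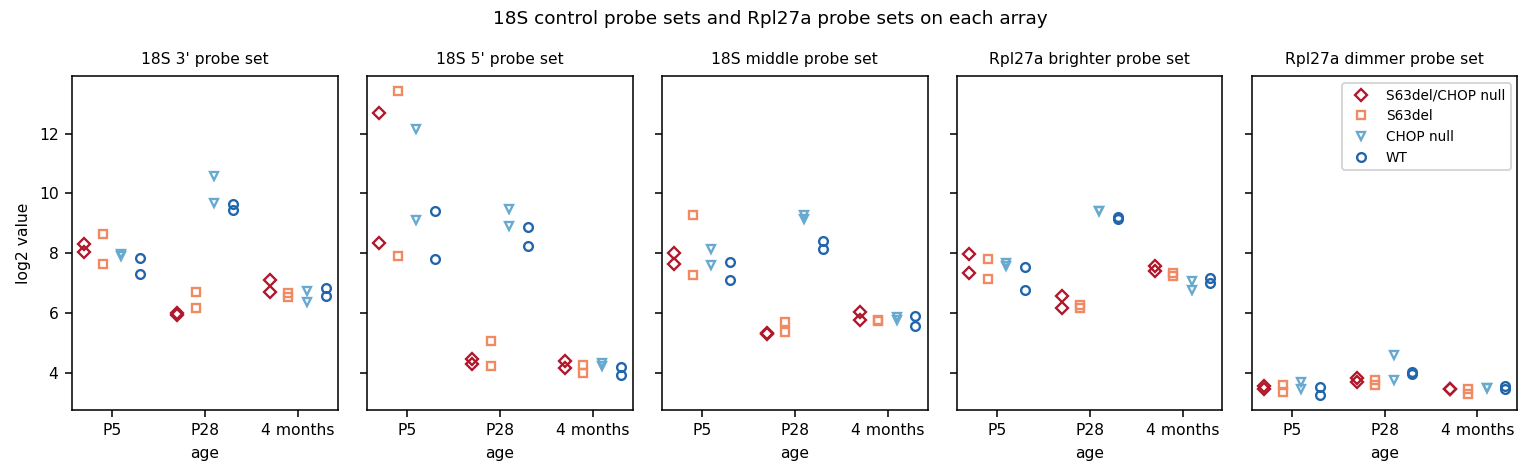
Log2 value of the 3 18S control probe sets and the 2 Rpl27a probe sets on each of 24 arrays, by age and genotype. At P28 the S63del/CHOP null and S63del arrays lie below the CHOP null and WT arrays for the 18S probe sets and the brighter Rpl27a probe set.

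Where a gene has several probe sets, these did not always give the same sign. At P28, for S63del against WT, the sign differed within 6 of the 23 genes with several probe sets, and within none of the 17 with a mean of at least 9. For both mutant genotypes pooled it differed within 7 of 23 and 1 of 17. There were 15 comparisons between 2 ages in WT nerve or between genotypes at 1 age. The sign differed within 0 to 2 of these 17 genes in the 6 comparisons that called any ribosomal protein gene. It differed within 3 to 11 in the 9 that called none. Signs differ more easily where differences are near 0. The median over the 48 genes was -0.02 to 0.08 in those 9, so the split gives no separate support for the calls. For 12 of the 48 genes the probe set used has the suffix _x_at, which marks probes that may also bind related transcripts, such as those of the many processed pseudogenes of this family.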

How the data were processed

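Sciatic nerve RNA of 24 mouse samples (4 genotypes at 3 ages, 2 per group) was hybridised to Affymetrix arrays. The authors deposited log2 values per probe set, a unit read from the values; their normalization and software are not given in the sources used, so the effect of normalization on a gene family that makes up much of the signal could not be separated. The number of arrays limits the precision, and saturation of the brightest probe sets could shrink their differences.

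Of 22690 probe sets, 20380 list 1 gene symbol, 691 several and 1555 none, and 64 are controls; those with 1 symbol, named through the RefSeq table of GRCm38.p6 (20351 matched), gave 12393 genes, each by its brightest probe set. A model with 1 mean per group was fitted to the 24 arrays in limma 3.58.1 (R 4.3.3; 12 residual degrees of freedom), with Benjamini-Hochberg adjustment over 12393 genes, or 22690 probe sets for 18S and Rpl27a, at a threshold of 0.05. The fit was also run on simulated data with independent noise. These data lack the differences in range between the arrays, so no result here rests on that run. Genes were named by rule: in each comparison all members past the threshold up to 8, otherwise the 5 largest rises and falls whose arrays do not overlap, plus a fixed set of subunit, stalk and paralog genes; the text prints part of them. Alternatives were repeated quantile normalization, other choices of probe set, a filter at the 40th percentile, each age alone, array weights, blocking on replicate number within age, and leaving out each array; 2 arrays were also left out together after seeing the data. The members and lists were chosen with earlier results of these data known.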

Additional observations from a re-analysis of the deposited data

Results flagged for a closer look

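The difference in S63del effect between ages was tested for each ribosomal protein gene, and Rpl27a differed in every comparison that involved P28. The S63del effect on Rpl27a at P28 minus that at P5 was -3.28 ± 0.35 (adjusted p = 0.000252, limma), and that at 4 months minus that at P28 was 3.16 ± 0.35 (adjusted p = 0.000238). For the effect of both S63del genotypes the differences were -3.19 ± 0.25 (adjusted p = 1.15e-06) and 3.39 ± 0.25 (adjusted p = 8.86e-07). Rpl27a was the only ribosomal protein gene called for both genotypes at P28 minus P5, where 3.10% of all genes were called.

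The same differences were tested for the 18S control probe sets. For the S63del effect at P28 minus that at P5 the 3′ probe set differed by -3.65 and the middle probe set by -3.63 (adjusted p = 0.000421 and 0.00599, limma), while the 5′ probe set, at -5.96, was not called (adjusted p = 0.352). At 4 months minus P28 the 3′ probe set differed by 3.01 (adjusted p = 0.00691), and the middle and 5′ probe sets, at 2.77 and 3.98, were not called (adjusted p = 0.0808 and 0.655). For both S63del genotypes at P28 minus P5 the 3′ probe set differed by -4.02, the 5′ probe set by -5.33 and the middle probe set by -3.74, with adjusted p of 1.56e-06, 0.0499 and 5.75e-05. At 4 months minus P28 the 3′ and middle probe sets differed by 3.76 and 3.37 (adjusted p = 3.13e-06 and 0.000266), and the 5′ probe set, at 4.40, was not called (adjusted p = 0.0972).

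For both S63del genotypes at 4 months minus P28, 3 further genes differed in the opposite direction to Rpl27a. They were Rpl14 (-0.66 ± 0.17, adjusted p = 0.0497, limma), Rpl12 (-0.60 ± 0.15, adjusted p = 0.0374) and Rps18 (-0.45 ± 0.10, adjusted p = 0.0243). With array weights none of the 3 was called (adjusted p = 0.163 for Rpl14, 0.125 for Rpl12 and 0.114 for Rps18). By the mean of its probe sets Rps18 differed by -0.06 (adjusted p = 0.749), and Rpl14 was not called either (adjusted p = 0.0516).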

How the results depend on the processing

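Among 303 values of counts and of 18S or Rpl27a differences recomputed under the alternatives, 268 kept their side of the threshold or lay within 1.5 times. A count cannot reverse, and none of the 18S or Rpl27a differences did. Among 1457 such values of single genes named by the rule, 1151 kept their side of the threshold, 302 lost the call and 4 reversed. The counts of S63del against WT at P5 (0) became 2 with array weights, with the P5 arrays alone, or without the 2 arrays that stand apart (CHOP null P28 replicate 2, WT 4 months replicate 1). At P28 (5) they became 10 with the 40th percentile filter, 3 with array weights, 13 without those 2 arrays and 1 with the P28 arrays alone. For both S63del genotypes at P5 (2) they became 1 with quantile normalization or without _x_at and _s_at probe sets, 6 with array weights and 4 without those 2 arrays or with the P5 arrays alone; at P28 (22) they became 2 with array weights and 1 with the P28 arrays alone. The 5′ 18S probe set (-4.37) lost its call with array weights (adjusted p = 0.222, limma), and its other values kept it. Leaving out 1 array gave 1 to 6 genes for S63del against WT at P28, 0 to 3 for CHOP null against WT at P28, 0 to 1 and 8 to 27 for both S63del genotypes at P5 and P28, 16 to 25 for WT at 4 months against P28, 8 to 12 against P5, and -0.57 to -0.16 for the dimmer Rpl27a probe set, called only without CHOP null P28 replicate 1. The replicate block within age left 3 of the 5 genes at P28 called and moved no other count by over 1.5 times; same-numbered arrays correlated above 0.1 in 1, 2 and 2 of 6 pairs at P5, P28 and 4 months, so the numbers were not taken as pairs. With the mean of all probe sets Rps4x reversed to -0.0676 for both S63del genotypes at P28, 0.0893 for WT at P28 against P5 and -0.124 for WT at 4 months against P28; without _x_at and _s_at probe sets Rpl13a reversed to -0.105 for WT at 4 months against P28. The causes were not tested. The share of all genes called was not computed under the alternatives or with arrays left out, so these counts cannot be set against it. Of 48 genes 5 have only _x_at or _s_at probe sets, and 45 pass the filter.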
